A study of Mus musculus with 8 samples.

Results

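The genes described are 44 genes of DNA replication and nucleotide synthesis among the 46078 genes of a count table. The cells were BV-2, a mouse microglial line that was immortalized and grows in culture. They were chosen by name for their role in S phase, matched by symbol to the Ensembl identifiers of the table, and all 44 were found there. RNA-Seq was made from 4 groups with 2 libraries each, and every group was held without serum for 4 h before treatment. By the series text, Control cells received the solvent. LPS cells were exposed to 100 ng/mL LPS, a membrane component of Gram-negative bacteria (here from a rough E. coli mutant), for 20 h. AGE+LPS cells also received aqueous aged garlic extract (AGE, 0.5% v/v), and FruArg+LPS cells also received 3 mM FruArg, a fructose-arginine conjugate found in that extract, each added 1 h before the LPS. The length of the exposure comes from the study's methods. No group received AGE or FruArg without LPS. Unlike most microglia of the healthy brain, the line divides continuously. The series text calls the replicates biological, but nothing says that they came from separate cultures, so p-values measure the spread between these libraries, which may be technical.

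A cell copies its genome once per division. Before S phase the origin recognition complex, Cdc6 and Cdt1 load the MCM helicase onto origins. Cdc45 and the GINS complex then turn it into the moving helicase, primase and DNA polymerase alpha lay down primers, polymerases delta and epsilon extend them on the clamp Pcna, and ribonucleotide reductase, thymidylate synthase, thymidine kinase and dUTPase feed the fork with deoxynucleotides. Genes of this machinery are known to be transcribed together in late G1 and S phase under E2F factors.

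Depth was uneven. For replicates 1 and 2 the summed counts reached 2707500 and 8995052 (Control), 8720784 and 12069807 (LPS), 6795464 and 6669072 (AGE+LPS), and 4692715 and 5822113 (FruArg+LPS). A floor of 3 counts in a library thus corresponds to between 0.249 and 1.11 CPM (counts scaled to a common library size), and it covers counting error only. Levels are given as CPM scaled by TMM over the 8 libraries, which the floor is not, and they compare libraries for a given gene. By the labels, lane 3 holds every replicate 1 and lane 6 every replicate 2. Library names of replicate 2 also carry a common string of digits that those of replicate 1 lack. The lane thus cannot be told apart from other differences between the replicate sets. FruArg+LPS replicate 1 stood apart from the rest. When all libraries were thinned to 2707500 counts it held 14157 detected genes, against 15392 in FruArg+LPS replicate 2 and between 15576 and 16341 in the 6 other libraries. In that library Pole2, Lig1 and Rrm2 had 1, 2 and 2 counts. Some results on FruArg+LPS are also given without that library, and the others include it.

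The macrophage lineage of the line was visible in its markers. Of 13 microglia and macrophage markers, 12 were detected in at least 1 library. Ptprc had the highest CPM, which is not corrected for gene length. Their summed level in replicates 1 and 2 was 3546 and 4305 CPM in Control, 2870 and 3227 with LPS, 2608 and 2969 with AGE+LPS, and 3517 and 3492 with FruArg+LPS. After LPS 4 of the 11 tested were down-regulated DEGs, with a median of -0.86, and the part of this in the results below was not tested. Sall1, a defining factor of microglia in the brain, had no count in any library. Markers of other brain cells were low, with a summed level of at most 2.18 CPM for 5 neuron markers, 3.04 CPM for 5 astrocyte markers, 1.87 CPM for 5 oligodendrocyte markers and 1.75 CPM for 5 fibroblast and endothelial markers.

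To ask what LPS did to the replication machinery, the LPS libraries were compared with the Control libraries. LPS lowered most of it. The 44 members together took 0.231% and 0.258% of all counts in Control and 0.0865% and 0.0796% with LPS. All 44 passed the filter on low counts, and 28 of them (63.6%) were down-regulated DEGs, with an adjusted p below 0.05 (edgeR quasi-likelihood F-test, Benjamini-Hochberg over 12888 genes) and at least a 2-fold change, against 11.1% of all genes tested. Only Pola2 (2.27% of the members) was an up-regulated DEG, against 11.5% of all genes. The median log2 fold change of the members was -1.34, beside 0.02 for all genes tested. Within lanes the median difference of the members was -1.21 in lane 3 and -1.51 in lane 6, and 39 of the 44 were lower after LPS in both lanes. In bulk RNA, fewer cells in S phase and less of these RNAs per cell cannot be told apart.

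The scaling bears on these counts. With library size in place of TMM, the median of all genes moved to -0.40, the split of all DEGs went from 1433 down-regulated and 1485 up-regulated to 2666 and 932, and that of the members from 28 and 1 to 38 and 0, with a member median of -1.76. With each library left out in turn, between 25 and 30 members were DEGs. Lig1 lost its call without Control replicate 1, Control replicate 2 or LPS replicate 2, and Pola2, Prim2 and Dut lost theirs without Control replicate 2, when 25 members were DEGs. Lig1 was also lost with DESeq2, and with 4 groups in one fit Lig1 and Pole2 were (Pole2 at adjusted p = 0.063).

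**Figure D1:**
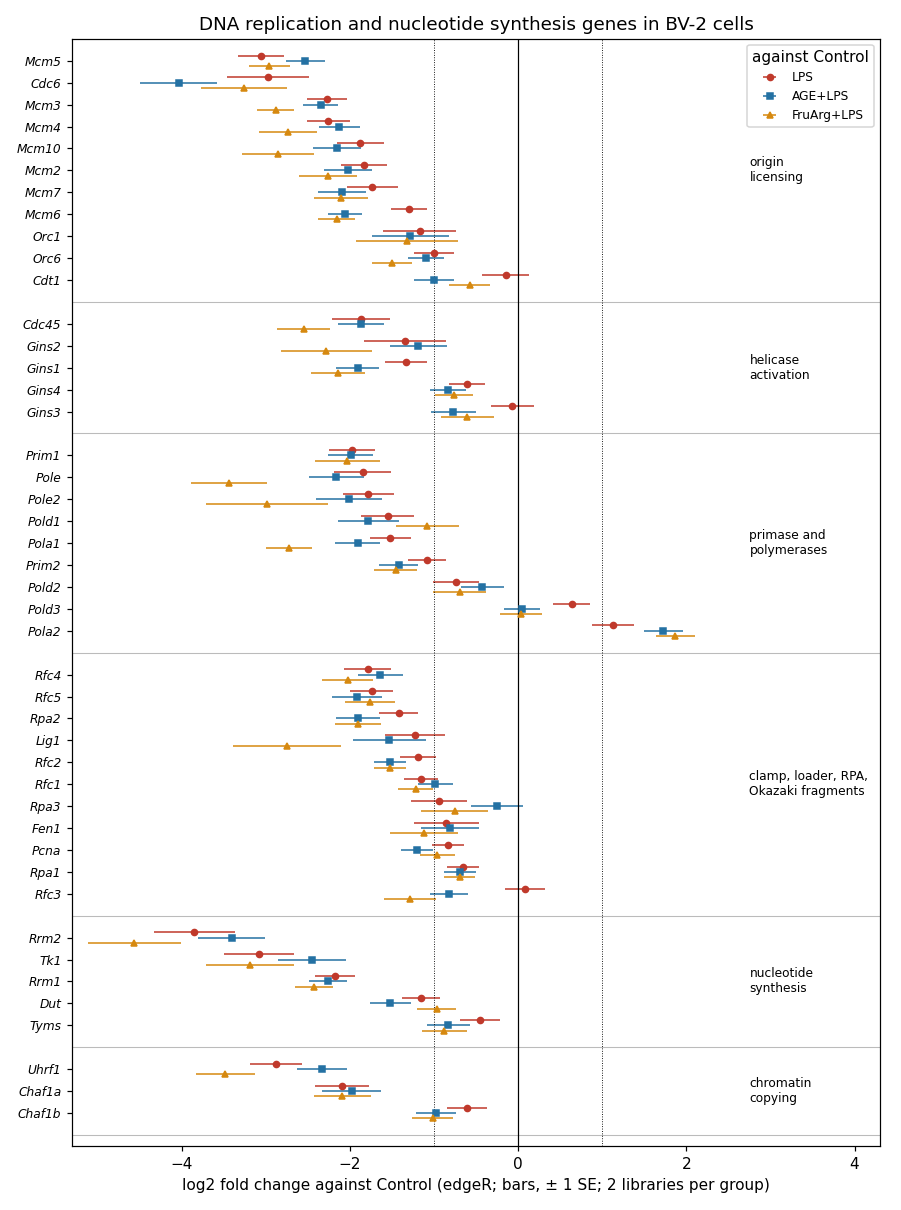
Log2 fold change of each of the 44 members against Control (x axis, edgeR estimate ± 1 SE, 2 libraries per group) in LPS (circles), AGE+LPS (squares) and FruArg+LPS (triangles), by role and in order of the LPS value; dotted lines mark a 2-fold change. Most members lie left of the line at -1 in all 3 groups, Pola2 lies at 1.13, 1.72 and 1.87, and Rfc3 lies at 0.08 after LPS and at -0.82 and -1.28 with the co-treatments.

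Of the 11 genes of origin licensing, 8 were down-regulated DEGs, with a median of -1.83. Mcm5, a subunit of the replicative helicase, had 80.5 and 85.1 CPM in Control, 12.1 and 7.46 with LPS, 16.2 and 12.1 with AGE+LPS, and 11.5 and 9.52 with FruArg+LPS. Both Control libraries stood far above the 6 others, and Mcm5 fell by 3.05 on the log2 scale (SE 0.28, adjusted p = 7.9e-05), the lowest value of the role. Mcm6, another subunit of the same ring, had 197 and 243 CPM in Control, 77.3 and 97.2 with LPS, 51.9 and 52.8 with AGE+LPS, and 42.7 and 54.1 with FruArg+LPS. Its levels formed 3 steps without overlap, Control above LPS above both co-treatments, and the LPS change was -1.30 (SE 0.22, adjusted p = 0.0019). Cdc6, Mcm2, Mcm3, Mcm4, Mcm7 and Mcm10 were the other DEGs, with log2 fold changes from -2.97 (Cdc6) to -1.74 (Mcm7).

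The other 3 licensing genes were not DEGs after LPS. Orc6, a subunit of the origin recognition complex, had 44.6 and 49.7 CPM in Control, 19.9 and 26.2 with LPS, 21 and 22.8 with AGE+LPS and 16.1 and 16.8 with FruArg+LPS. It fell after LPS (-0.998, SE 0.235, adjusted p = 0.011), just under the 2-fold minimum, and its Control libraries did not overlap with the others. Orc1, the ATPase of the same complex, was low throughout, with 4.05 and 5.54 CPM in Control, 2.13 and 2.12 with LPS, 1.57 and 2.43 with AGE+LPS, and 2.53 and 1.33 with FruArg+LPS. Its change of -1.17 (SE 0.43) had an adjusted p of 0.070. With the replicate number, which goes with the lane, as a block it was a DEG (adjusted p = 0.023). It was also a DEG with library size scaling (adjusted p = 0.018) but not with DESeq2 (adjusted p = 0.20). Without Control replicate 2 its change was -0.91. Cdt1, the helicase loader that is destroyed once S phase begins, had 58.9 and 48.6 CPM in Control, 59.1 and 35.3 with LPS, 29.6 and 23.2 with AGE+LPS, and 40 and 30.8 with FruArg+LPS. The LPS libraries overlapped with the Control libraries, and the difference of -0.15 (SE 0.27) did not pass the test (adjusted p = 0.72).

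Among the 5 genes of helicase activation, Cdc45 and Gins1 were down-regulated DEGs. Cdc45, which binds the MCM ring at the start of S phase, had 30.6 and 46.9 CPM in Control, 13.8 and 7.37 with LPS, 11.1 and 10 with AGE+LPS, and 6.20 and 6.85 with FruArg+LPS. It fell by 1.87 on the log2 scale (SE 0.34, adjusted p = 0.0031) and was low in all 6 treated libraries. The 4 GINS subunits form one complex. Gins2 had 9.35 and 9.66 CPM in Control, 5.64 and 1.84 with LPS, 4 and 4.25 with AGE+LPS, and 2.76 and 1.14 with FruArg+LPS. Gins3 had 18.4 and 26.2 CPM in Control, 20.4 and 21.6 with LPS, 12.1 and 14.1 with AGE+LPS, and 17.2 and 12 with FruArg+LPS. Gins4 had 45.2 and 45.5 CPM in Control, 30.9 and 27.1 with LPS, 26.2 and 24.1 with AGE+LPS, and 25.3 and 27.2 with FruArg+LPS. For Gins2 and Gins4 every treated library lay below both Control libraries, whereas the LPS libraries of Gins3 lay inside its Control range. The LPS changes were -1.33 for Gins1 (adjusted p = 0.0037), -0.61 for Gins4 (adjusted p = 0.059) and -0.07 for Gins3 (adjusted p = 0.87). For Gins2 the change had an adjusted p of 0.066, and with the block it became a DEG at -1.52 (adjusted p = 0.00069). Without LPS replicate 2 the Gins2 change was -0.71 and without LPS replicate 1 it was -2.32.

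The 9 genes of primase and the replicative polymerases held both the up-regulated member and 6 down-regulated DEGs. Prim1, the catalytic subunit of primase, had 24 and 23.9 CPM in Control, 5.64 and 6.17 with LPS, 6.15 and 5.77 with AGE+LPS, and 7.81 and 3.81 with FruArg+LPS. This was the lowest change of the role, at -1.98 (SE 0.27, adjusted p = 0.00068), and the treated groups overlapped with each other. Pola1, Prim2, Pold1, Pole and Pole2 were also down-regulated DEGs, from -1.85 (Pole) to -1.08 (Prim2).

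Pola2, the second subunit of polymerase alpha and the partner of Pola1, moved the opposite way. It had 21.2 and 19 CPM in Control, 49.6 and 36 with LPS, 72.5 and 58 with AGE+LPS, and 76.2 and 67.6 with FruArg+LPS. Every treated library exceeded both Control libraries, and both co-treatments exceeded both LPS libraries. After LPS its mean rose from 20.1 ± 1.53 to 42.8 ± 9.61 CPM (SD, n = 2), a log2 fold change of 1.13 (SE 0.25, adjusted p = 0.0082). The DEG call was lost without Control replicate 2 (1.03, adjusted p = 0.079), without LPS replicate 1 (0.90, adjusted p = 0.011) and with scaling by library size (0.71, adjusted p = 0.051), and the sign stayed positive in each. In contrast, Pola1 had 37.1 and 42.8 CPM in Control, 12.5 and 14.7 with LPS, 8.43 and 12.7 with AGE+LPS, and 5.74 and 6.09 with FruArg+LPS.

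Pold2 and Pold3, accessory subunits of polymerase delta, were not DEGs after LPS. Pold2 had 17.5 and 16.1 CPM in Control, 9.52 and 10 with LPS, 12.6 and 12 with AGE+LPS, and 11.3 and 9.14 with FruArg+LPS. Pold3 had 29 and 34.2 CPM in Control, 43.8 and 52.4 with LPS, 30.7 and 34.2 with AGE+LPS, and 27.6 and 36.4 with FruArg+LPS. Thus the LPS libraries were the highest 2 of 8 for Pold3, and both co-treatments overlapped with Control. The LPS changes were -0.74 for Pold2 (SE 0.27, adjusted p = 0.067) and 0.64 for Pold3 (SE 0.22, adjusted p = 0.057). With the block both passed the adjusted p below the 2-fold minimum (adjusted p = 0.016 and 0.0035), while library size scaling gave 0.21 for Pold3 (adjusted p = 0.49).

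**Figure D2:**
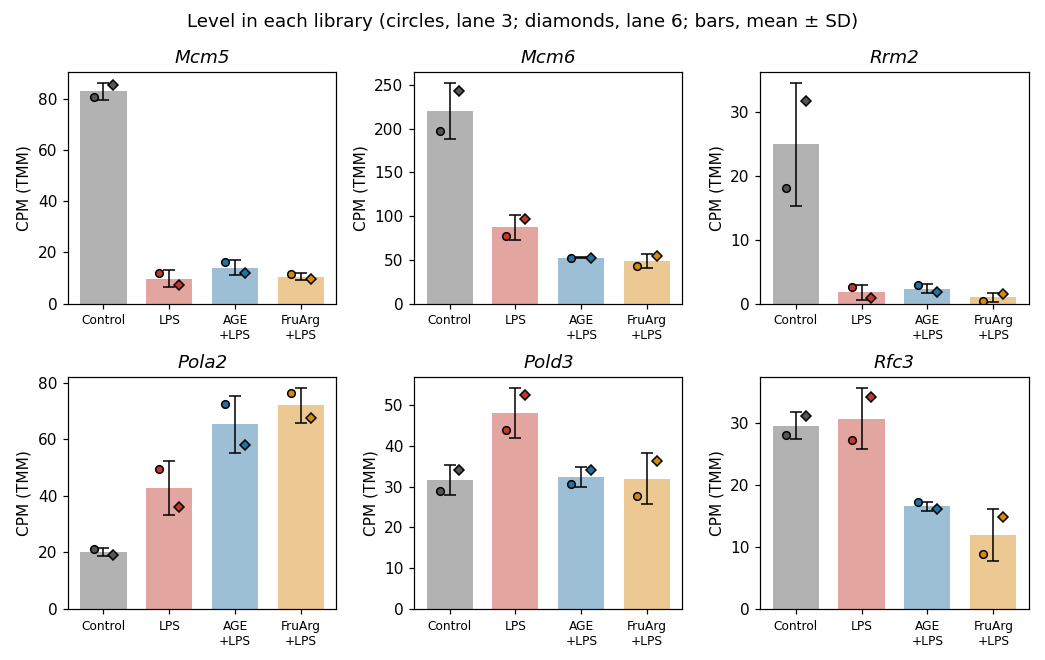
TMM-scaled CPM (y axis, from 0) of 6 members in each of the 8 libraries, with circles for lane 3, diamonds for lane 6 and bars for the group mean ± SD (n = 2). Mcm5, Mcm6 and Rrm2 are highest in Control, Pola2 climbs from 20.1 to 42.8, 65.2 and 71.9 CPM, Pold3 is highest in LPS (48.1 CPM), and Rfc3 is near 30 CPM in Control (29.6) and LPS (30.7) and lower with AGE+LPS (16.6) and FruArg+LPS (11.9).

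Of the 11 genes for the clamp, its loader, single-strand binding and Okazaki fragment maturation, 6 were down-regulated DEGs. Rfc4, a subunit of the clamp loader, had 23.7 and 28.1 CPM in Control, 6.51 and 8.1 with LPS, 7.29 and 9.26 with AGE+LPS, and 6.43 and 6.09 with FruArg+LPS. It had the lowest LPS change of the role (-1.79, SE 0.27, adjusted p = 0.0012), followed by Rfc5, Rpa2, Lig1, Rfc2 and Rfc1 (up to -1.15). Rfc3 belongs to the same loader, yet it had 28.1 and 31.2 CPM in Control, 27.2 and 34.2 with LPS, 17.2 and 16.1 with AGE+LPS, and 8.96 and 14.9 with FruArg+LPS. Its LPS libraries bracketed the Control libraries (0.08, SE 0.23, adjusted p = 0.82), and the sign of this small difference turned with library size scaling (-0.34) and without LPS replicate 2 (-0.09).

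Pcna, the sliding clamp, had 159 and 155 CPM in Control, 80.6 and 91.6 with LPS, 67.5 and 67.8 with AGE+LPS, and 90.7 and 68.2 with FruArg+LPS. Rpa1, the large subunit of the single-strand binding protein, had 137 and 136 CPM in Control, 85.9 and 83.6 with LPS, 77.3 and 90.2 with AGE+LPS, and 81.1 and 84.7 with FruArg+LPS. Both fell after LPS by less than 2-fold, by 0.83 (SE 0.20, adjusted p = 0.011) and 0.65 (SE 0.19, adjusted p = 0.028) on the log2 scale, and no treated library reached a Control library. Rpa3, the small subunit, had 8.73 and 9.48 CPM in Control, 4.51 and 4.79 with LPS, 7.43 and 7.74 with AGE+LPS, and 5.28 and 5.33 with FruArg+LPS. Fen1, the flap nuclease of Okazaki fragments, had 9.04 and 11.1 CPM in Control, 7.26 and 3.87 with LPS, 6.72 and 4.71 with AGE+LPS, and 4.36 and 4.76 with FruArg+LPS. For both, all treated libraries lay below both Control libraries, but the LPS changes of -0.94 for Rpa3 (SE 0.33, adjusted p = 0.060) and -0.85 for Fen1 (SE 0.38, adjusted p = 0.12) passed the adjusted p with the block (0.014 and 0.015). For Fen1 the change was -1.36 without LPS replicate 1, when it was a DEG, and -0.45 without LPS replicate 2.

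Nucleotide synthesis had the lowest median of the roles, at -2.17, with 4 of 5 genes down-regulated. Rrm2, the small subunit of ribonucleotide reductase whose RNA follows S phase, had 18.1 and 31.6 CPM in Control, 2.63 and 0.921 with LPS, 2.86 and 1.82 with AGE+LPS, and 0.459 and 1.52 with FruArg+LPS. Its change of -3.85 (SE 0.48, adjusted p = 0.00039) was the lowest of the 44, with 58 and 337 counts in the Control libraries and 21 and 10 in the LPS libraries. Tk1, the salvage kinase of thymidine, fell by 3.08 on the log2 scale, Rrm1, the large reductase subunit, by 2.17, and Dut, which removes dUTP, by 1.15. Tyms, the enzyme that makes thymidylate de novo, had 28.4 and 38.7 CPM in Control, 25.2 and 23.2 with LPS, 21.4 and 16.2 with AGE+LPS, and 16.3 and 19.8 with FruArg+LPS. All 6 treated libraries lay below its Control libraries, but the LPS difference of -0.45 (SE 0.24) did not pass the test (adjusted p = 0.19; 0.063 with the block).

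Of the 3 genes that copy chromatin behind the fork, 2 were down-regulated DEGs. Uhrf1, which brings the maintenance methyltransferase to new DNA, had 28.1 and 30.9 CPM in Control, 4.76 and 3.13 with LPS, 7 and 4.55 with AGE+LPS, and 2.07 and 3.05 with FruArg+LPS. It fell after LPS by 2.88 on the log2 scale (SE 0.31, adjusted p = 0.00017), and its AGE+LPS libraries lay above its FruArg+LPS libraries. Chaf1a, the large subunit of the histone chaperone CAF-1, fell by 2.10. Chaf1b, its second subunit, had 35.2 and 42.9 CPM in Control, 28.7 and 21.7 with LPS, 22.2 and 17.3 with AGE+LPS, and 17.5 and 20.6 with FruArg+LPS, and the LPS difference of -0.61 (SE 0.24) missed the threshold (adjusted p = 0.088; 0.0089 with the block). All treated libraries of Chaf1b were below both Control libraries.

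In all, 16 members were not down-regulated DEGs after LPS. With library size scaling 10 of them were, Orc1, Orc6, Gins2, Gins4, Pold2, Pcna, Rpa1, Rpa3, Fen1 and Chaf1b. Pola2 rose, Orc6, Pcna and Rpa1 fell by less than 2-fold, and the other 12 did not pass the adjusted p. With the block, 8 of these 12 passed it, Orc1, Gins2, Gins4, Pold2, Rpa3, Fen1 and Chaf1b downward and Pold3 upward. Cdt1, Gins3, Rfc3 and Tyms did not pass in either fit.

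AGE+LPS was compared with LPS to see whether the extract changed these genes in the presence of LPS. The filter left 43 members, without Cdc6, and 0 of them were DEGs by edgeR and 0 by DESeq2, with 98 of 12317 genes (0.796%) called by edgeR and 551 by DESeq2. An unadjusted p below 0.05 was found for 6 members by edgeR and 3 by DESeq2, and for 17.8% and 14.4% of all genes. The median log2 fold change of the members was -0.18 beside -0.00 for all genes, and with library size scaling these were -0.02 and 0.15. With the block, edgeR called 4.82% of all genes down-regulated and 4.91% up-regulated DEGs, and again 0 members. The adjusted p alone, at any fold, was then passed downward by 9 of 43 members (20.9%), close to the 21% of all genes, and upward by 3 (6.98%), against 19.3% of all genes. With the block, 4 libraries leave little of a gene's own spread to estimate. Its p-values lean on the spread shared over all genes, so a very small one is not evidence from that gene's replicates alone.

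Those that passed with the block were of different roles. The 4 with the largest changes were Rfc3, Cdt1, Mcm6 and Rpa3. Rfc3 was lower with AGE+LPS than with LPS in both lanes and without overlap, by -0.66 and -1.08 on the log2 scale (block estimate -0.88, SE 0.16, adjusted p = 2.7e-06; 0.13 without the block). Cdt1 differed by -0.996 and -0.60 in lanes 3 and 6 (block estimate -0.81, SE 0.14, adjusted p = 3.6e-07; 0.23 without the block), and without LPS replicate 2 it was a DEG at -1.16 (adjusted p = 0.046), while without LPS replicate 1 it was at -0.42. Mcm6 was lower by -0.57 and -0.88 (block estimate -0.73, SE 0.11, adjusted p = 2.9e-08; 0.15 without the block). Rpa3 was higher by 0.71 and 0.68 (block estimate 0.71, SE 0.27, adjusted p = 0.031; 0.32 without the block), which brought it near its Control level. Gins1, Gins3, Pold3, Pcna, Rfc2 and Rpa2 were the other members lower than with LPS, and Mcm5 and Pola2 the other members higher, all by less than 2-fold. In levels, AGE+LPS was thus below LPS for Rfc3, Cdt1 and Gins3, whose LPS difference from Control did not pass the test. The AGE+LPS level of Mcm6 was a further step down, and that of Pold3 lay in the Control range. Without the block Gins3 (adjusted p = 0.22) and Pold3 (adjusted p = 0.25) did not pass either. The downward share of members with the block was near that of all genes, as given above.

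FruArg+LPS was compared with LPS in the same way, since FruArg is a constituent of the extract. The filter left 42 members, without Rrm2 and Tk1. Again 0 members were DEGs by edgeR and 0 by DESeq2, which gave an adjusted p for 31 of the 42 and not for Pole, Pole2 or Lig1, and of 12071 genes edgeR called 0 and DESeq2 202 (of 9730 with an adjusted p). An unadjusted p below 0.05 was found for 5 members by edgeR and 4 by DESeq2, beside 12.8% and 11.4% of all genes. The median of the members was -0.38 beside -0.01 for all genes, and without FruArg+LPS replicate 1 it was -0.35, with 0 members called. With the block, 2 of 42 members (4.76%) were down-regulated DEGs, Rfc3 and Pola1, against 3.48% of all genes, and 0 were up-regulated, against 2.87%. The adjusted p alone was passed with the block downward by 4 members (9.52%), beside 9.36% of all genes, and upward by 1 (2.38%), beside 8.23%. The downward shares are near the background and the upward shares below it. Pola1 and the other members named beyond the rule given with the processing were chosen after their values were seen.

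Rfc3 had the clearest change with FruArg. It was lower than with LPS by -1.59 in lane 3 and -1.20 in lane 6 (block estimate -1.38, SE 0.27, adjusted p = 1e-04; 0.21 without the block), while without FruArg+LPS replicate 1 the difference was -1.04 (adjusted p = 0.57) and without replicate 2 Rfc3 was a DEG at -1.77 (adjusted p = 0.0047). Pola1 was lower by -1.11 and -1.26 (block estimate -1.19, SE 0.35, adjusted p = 0.011; 0.29 without the block). Its partner Pola2 was higher by 0.62 and 0.91 (block estimate 0.77, SE 0.19, adjusted p = 0.0021, and 0.32 without the block). With 1 library left out in turn, the Pola1 difference ran from -1.32 to -1.07 and the Pola2 difference from 0.54 to 0.99.

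Pole, Pole2 and Lig1 had the other large estimates with FruArg and rested on few counts. Pole, the catalytic subunit of polymerase epsilon, had 15.3 and 14.9 CPM in Control, 5.01 and 3.22 with LPS, 3 and 3.64 with AGE+LPS, and 1.15 and 1.52 with FruArg+LPS. Pole2, its second subunit, had 16.5 and 17.8 CPM in Control, 5.38 and 4.42 with LPS, 2.57 and 5.92 with AGE+LPS, and 0.230 and 3.81 with FruArg+LPS. Lig1, the ligase of Okazaki fragments, had 8.42 and 8.54 CPM in Control, 3.76 and 3.32 with LPS, 1.86 and 3.95 with AGE+LPS, and 0.459 and 1.90 with FruArg+LPS. The FruArg+LPS libraries were below the LPS libraries for all 3, and far lower in replicate 1 for Pole2 and Lig1. The block estimates of -1.55, -1.49 and -1.61 did not pass the test (adjusted p = 0.13, 0.14 and 0.15). Without FruArg+LPS replicate 1 the differences were -1.40 for Pole, -0.35 for Pole2 and -0.87 for Lig1, and without FruArg+LPS replicate 2 Pole2 was at -4.32 (adjusted p = 0.0039).

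Against Control, each co-treated group showed the machinery low. In AGE+LPS 31 of 44 members (70.5%) were down-regulated DEGs, against 7.41% of 12449 genes, and 1 (Pola2) was up-regulated, against 7.64%. The member median was -1.71, beside 0.01 for all genes. In FruArg+LPS 30 members (68.2%) were down-regulated DEGs, against 7.84% of 12038 genes, and again only Pola2 was up-regulated, against 9.59%, with a member median of -1.96 (-2.004 without FruArg+LPS replicate 1, with 32 down-regulated DEGs). Orc6 and Gins2, which were not DEGs after LPS, were down-regulated DEGs in both, Cdt1 and Pcna in AGE+LPS, and Rfc3 and Chaf1b in FruArg+LPS. Conversely, Rfc1 was a DEG after LPS but not in AGE+LPS (-0.98, adjusted p = 0.0097). Pold1 (-1.08, adjusted p = 0.076) and Dut (-0.97, adjusted p = 0.021) were DEGs after LPS but not in FruArg+LPS. With the block Pold1 was a DEG there (adjusted p = 0.012). With the filter of at least 1 count, Pold1, Pcna and Dut were DEGs in FruArg+LPS. Their calls there also changed when FruArg+LPS replicate 1 was left out. Cdt1 lay at the 2-fold minimum in AGE+LPS (-1, SE 0.24, adjusted p = 0.017), and its call was lost with DESeq2, with RLE size factors, with the filter of at least 1 count and without Control replicate 1 or AGE+LPS replicate 2. Gins2 lost its call without either Control library and, in AGE+LPS, without replicate 1 of that group, with DESeq2 and with 4 groups in one fit. In AGE+LPS that fit also lost Pole2 and Lig1 and gained Rfc1, and Lig1 was lost without either Control library or AGE+LPS replicate 1. Orc6 lost its call in AGE+LPS without Control replicate 2, and in FruArg+LPS Rfc3 and Chaf1b lost theirs without Control replicate 2 or FruArg+LPS replicate 1, and Lig1 without Control replicate 2. Pola2 reached 1.72 (SE 0.23, adjusted p = 0.0011) in AGE+LPS and 1.87 (SE 0.23, adjusted p = 0.0011) in FruArg+LPS. These comparisons share the Control libraries with that of LPS. With library size scaling the counts of down-regulated and up-regulated members were 38 and 1 in AGE+LPS, where those of all genes went from 922 and 951 to 1385 and 683, and 39 and 1 in FruArg+LPS, where those of all genes went from 944 and 1154 to 1936 and 708.

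Partial recovery was read within lanes, by position and not by a test, as a co-treatment library that lay between the LPS and the Control library of its own lane. Either direction counts, so Pold3, which was higher after LPS, is included in lane 3 with AGE+LPS and in lane 6 with FruArg+LPS. Under AGE+LPS this held for 14 of 44 members in lane 3 and 19 in lane 6, and for 9 in both lanes, Mcm4, Mcm5, Pold2, Rfc1, Rfc4, Rpa3, Rrm2, Tk1 and Uhrf1. Under FruArg+LPS it held for 9 members in lane 3 and 12 in lane 6, and for 3 in both, Pold1, Rpa3 and Dut. Rpa3 is the only member on both lists. With the block, Mcm5 and Rpa3 were the members of the first list that passed the adjusted p against LPS, and those of the second list did not pass it. In lane 3 the position of Rrm2 rests on 20 counts with AGE+LPS and 21 with LPS. Mcm5 reached 16.2 and 12.1 CPM with AGE+LPS from 12.1 and 7.46 with LPS, where the Control libraries had 80.5 and 85.1.

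These positions were set beside those of all genes lowered by LPS. Of the 28 members down-regulated by LPS, 7 (25%) lay between LPS and Control in both lanes with AGE+LPS and 12 (42.9%) lay at or below LPS in both, whereas of all 1433 genes down-regulated by LPS 62% lay between and 11.4% at or below. With FruArg+LPS, 2 of the 28 (7.14%) lay between and 18 (64.3%) at or below, against 42.8% and 21% of the 1433 genes. The median difference of these 28 from LPS was -0.25 in lane 3 and -0.10 in lane 6 with AGE+LPS, where that of the 1433 genes was 0.51 and 0.58, and -0.49 and -0.21 with FruArg+LPS, where it was 0.30 and 0.29. Without TMM the medians of the 28 were -0.085 and 0.034 with AGE+LPS and -0.475 and -0.205 with FruArg+LPS, and 9 of them lay between and 9 at or below in both lanes with AGE+LPS, against 72% and 8.93% of the 1433 genes. In lane 6, which does not hold the FruArg+LPS library with fewer genes detected, 21 of the 28 were at or below LPS, beside 499 of the 1433 genes. The LPS library enters both sides of each such count, and the difference between the lists was not tested.

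**Figure D3:**
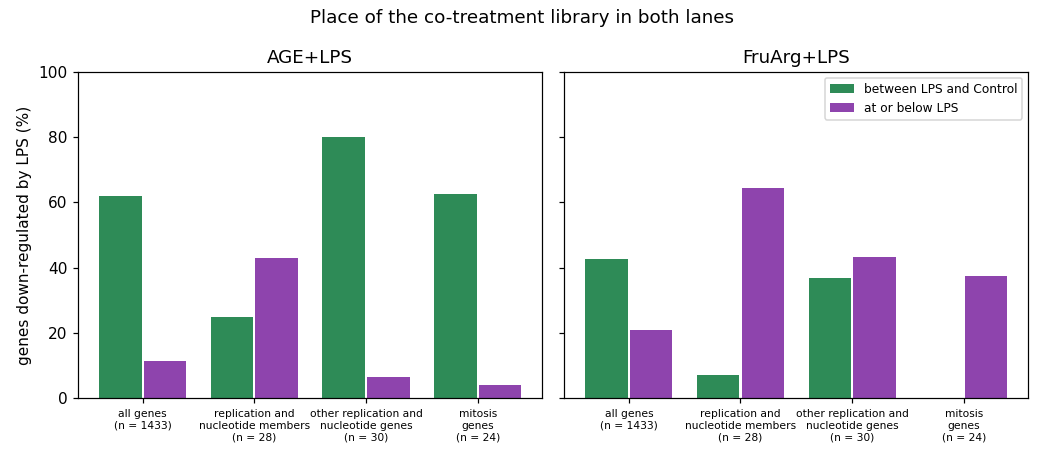
Percent of genes down-regulated by LPS (y axis) whose co-treatment library lay between the LPS and Control libraries (green) or at or below the LPS library (purple) of its lane, in both lanes, for all genes and 3 lists. Between lie 25% of the members with AGE+LPS and 7.14% with FruArg+LPS, against 62% and 42.8% of all genes, and 62.5% and 0% of the mitosis genes.

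FruArg+LPS and AGE+LPS were also compared directly, at unlike doses of FruArg. Of 42 members tested (without Cdc6 and Tk1), 0 were DEGs by edgeR, with or without the block, and 0 by DESeq2, which gave an adjusted p for 15 of them. Of 11915 genes edgeR called 0 without the block and 0.898% with it, and DESeq2 called 5 of 7064 with an adjusted p. An unadjusted p below 0.05 was found for 0 members by edgeR and 0 by DESeq2, beside 5.61% and 4.41% of all genes. The member median was -0.21 beside -0.02 for all genes. Uhrf1, which lay above LPS in both lanes with AGE+LPS (0.55 and 0.53) and below it with FruArg+LPS (-1.17 and -0.04), differed by -1.17 between the co-treatments (SE 0.58, adjusted p = 0.84; 0.31 with the block). A p that misses the threshold does not show that the co-treatments act alike.

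Other genes of the same processes give the context. Of 16 other licensing and firing genes, 5 were down-regulated and 1 up-regulated DEGs after LPS, with a median of -0.63. Ticrr and Mcm8 had the lowest log2 fold changes among those that passed the test (-4.02 and -1.91, adjusted p = 0.00092 and 0.0037). Mcm9, the partner of Mcm8 in recombination, rose from 20.9 and 29.5 CPM to 46.5 and 55 CPM (1.03, adjusted p = 0.012), and Gmnn, the inhibitor of Cdt1, fell by less than 2-fold (-0.69, adjusted p = 0.035). Of 16 other fork and polymerase genes, 7 were down-regulated DEGs, with a median of -1.01. Clspn (-3.12, adjusted p = 0.00017) and Top2a (-3.10, adjusted p = 6.5e-05) were lowest, Dna2 fell by 1.40 on the log2 scale, and Pole4 rose by less than 2-fold (0.74, adjusted p = 0.026).

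Of 28 other genes of nucleotide metabolism, 15 were down-regulated and 2 up-regulated DEGs after LPS, with a median of -1.07. Samhd1, which hydrolyses deoxynucleotides, had 146 and 211 CPM in Control, 853 and 1315 with LPS, 229 and 386 with AGE+LPS, and 250 and 492 with FruArg+LPS. It rose after LPS by 2.63 on the log2 scale (SE 0.29, adjusted p = 0.00021), and with the block it was lower than with LPS by -1.83 with AGE+LPS (adjusted p = 6.6e-32; 0.061 without the block) and -1.59 with FruArg+LPS (adjusted p = 2.4e-09; 0.21 without the block). Impdh1, of guanine nucleotide synthesis, also rose (1.19, adjusted p = 0.036), while Dctd (-2.62, adjusted p = 0.00068) and Shmt1 (-1.81, adjusted p = 0.00098) fell. Dctd, which makes the substrate of Tyms, had 14 and 11.8 CPM in Control, 2.13 and 1.93 with LPS, 6.29 and 4.86 with AGE+LPS, and 2.53 and 2.09 with FruArg+LPS, and with the block it was higher with AGE+LPS than with LPS (1.44, adjusted p = 0.00059; 0.13 without the block).

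Of 10 translesion and repair polymerases 9 were tested, with a median of -0.13, and Polh was the 1 gene past the adjusted p, by less than 2-fold (-0.82, adjusted p = 0.031). Among 9 other genes of chromatin copying, 3 were down-regulated DEGs, with a median of -0.97. Asf1b (-2.54, adjusted p = 0.00054) and Hells (-2.13, adjusted p = 0.00023) fell most, and Dnmt1 and Ssrp1 fell by less than 2-fold (both -0.97). Ssrp1, of the histone chaperone FACT, had 106 and 105 CPM in Control, 51.3 and 53.1 with LPS, 100 and 115 with AGE+LPS, and 93.2 and 77.9 with FruArg+LPS. With the block it was higher than with LPS by 1.04 with AGE+LPS (adjusted p = 9.2e-15; 0.064 without the block) and 0.71 with FruArg+LPS (adjusted p = 0.0044; 0.31 without the block).

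Of 28 regulators of the G1/S step, 27 were tested, and 13 were down-regulated and 4 up-regulated DEGs after LPS. Cdkn1a, an inhibitor of cyclin-dependent kinases, had 11.8 and 15.9 CPM in Control, 130 and 95.9 with LPS, 48.5 and 47.5 with AGE+LPS, and 64.8 and 106 with FruArg+LPS. It rose after LPS by 3.03 on the log2 scale (adjusted p = 6.2e-05), and with the block it was lower with AGE+LPS than with LPS (-1.22, adjusted p = 2.3e-17; 0.061 without the block), while the difference with FruArg+LPS did not pass in either fit (-0.41, adjusted p = 0.14; 0.58 without the block). Myc rose from near the floor (3.46, adjusted p = 0.0060). Ccna2, the S-phase cyclin, had 40.9 and 51.7 CPM in Control, 4.51 and 3.41 with LPS, 7.15 and 7.29 with AGE+LPS, and 1.15 and 3.05 with FruArg+LPS, a fall of 3.53 on the log2 scale after LPS, and E2f8 fell with it (-4.29, adjusted p = 0.0040).

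Mitosis genes fell too. All 25 were tested, and 24 were down-regulated DEGs after LPS, with a median of -2.59. Plk1 (-4.47, adjusted p = 0.00034) and Birc5 (-3.86, adjusted p = 0.00015) had the lowest values, and Tpx2 and Ccnb1 the smallest that passed (-1.06 and -1.19). Of these 24, 15 (62.5%) lay between LPS and Control in both lanes with AGE+LPS and 1 (4.17%) at or below LPS in both, whereas with FruArg+LPS 0 lay between in both and 9 (37.5%) at or below. Birc5 had 18.1 and 22.3 CPM in Control, 1.88 and 0.921 with LPS, 6.72 and 5.31 with AGE+LPS, and 1.84 and 1.90 with FruArg+LPS, and with the block it was higher with AGE+LPS than with LPS (2.14, adjusted p = 2.4e-06; 0.087 without the block). Of 30 other replication, nucleotide and chromatin genes of the lists above that were down-regulated by LPS, 24 (80%) lay between in both lanes with AGE+LPS and 2 (6.67%) at or below LPS, and with FruArg+LPS 11 (36.7%) lay between and 13 (43.3%) at or below. The difference of these lists from the members was not tested.

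Per length of the exons, as TMM-scaled RPKM, the members spanned from 1.35 (Pole) to 65.6 (Pcna) in Control. Mcm6 (47.1 RPKM) and Gins4 (33.6 RPKM) came next to Pcna. Among the 6 loaded MCM subunits, Control levels ran from 47.1 RPKM for Mcm6 and 29.7 for Mcm3 to 8.94 for Mcm2 and 5.41 for Mcm7. The order changed with LPS. Pold3 moved from rank 27 to rank 6 (6.86 to 10.5 RPKM), Cdt1 from 11 to 5 (17.1 to 15 RPKM), and Rfc3 from 23 to 9 (8.2 to 8.49 RPKM), whereas Mcm5 moved from 7 to 26 (20.7 to 2.46 RPKM) and Rrm2 from 18 to 39 (8.97 to 0.641 RPKM). Pola2 lay below Pola1 in Control (2.43 and 4.53 RPKM) and above it with LPS (5.16 and 1.55 RPKM). These values divide by the union of annotated exons, 8294 bases for Pola2 and 8813 for Pola1. A union can be longer than the RNA present, so orders between genes are uncertain to that extent.

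Since most members moved together, their promoters (250 bases before to 50 after the start, RefSeq, GRCm38.p6) were searched on both strands. Promoters were listed for 37 members, 43 in all. Any of the E2F motifs TTTGGCGC, TTTCGCGC, TTTCCCGC and TTTGGCGG was in 18 of the 43 (41.9%), against 2.37% of the 32851 promoters listed for mouse. The share was 40.7% in promoters of members down-regulated by LPS and 43.8% in promoters of the other members. CCAAT was in 58.1% of member promoters and 37.4% of all, GGGCGG, the GC box, in 74.4% and 35.7%, and TTTGAA or TTCGAA, the CHR, in 16.3% and 19.2%. Member promoters were also richer in G and C (median 61.3%, against 52.7% of all). They held more CpG, a C followed by a G (median count 24, against 7 of all). Both bear on motifs made of these bases. The E2F motifs can overlap with one another and with the GC box.

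The 250 bases before the start are printed for 2 licensing genes lowered by LPS, Mcm5, which had the lowest value of its role, and Mcm6, which was lower again with the co-treatments, with E2F motifs on either strand in capitals. They lie at chr8:75109259-75109508 on the plus strand (Mcm5) and chr1:128359706-128359955 on the minus strand (Mcm6), and are read 5′ to 3′ along the gene. The genes themselves lie at chr8:75109569-75128439 (Mcm5) and chr1:128331590-128359664 (Mcm6) in the annotation of GRCm38, so that both stretches are upstream of the annotated exons.
Mcm5: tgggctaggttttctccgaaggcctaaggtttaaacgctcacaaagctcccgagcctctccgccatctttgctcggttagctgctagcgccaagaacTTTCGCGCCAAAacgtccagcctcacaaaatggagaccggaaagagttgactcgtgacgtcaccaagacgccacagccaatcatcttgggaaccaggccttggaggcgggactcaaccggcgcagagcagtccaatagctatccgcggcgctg
Mcm6: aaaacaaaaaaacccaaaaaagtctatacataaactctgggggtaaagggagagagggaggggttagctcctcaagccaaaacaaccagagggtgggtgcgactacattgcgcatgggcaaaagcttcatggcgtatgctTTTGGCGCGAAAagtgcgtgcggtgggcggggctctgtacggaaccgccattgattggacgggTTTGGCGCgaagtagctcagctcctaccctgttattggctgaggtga
Mcm5 held TTTCGCGC at 153 bases before the start and TTTGGCGC on the other strand at 149, and the matches overlap. Mcm6 held TTTGGCGC at 110 and at 47 bases before the start and TTTCGCGC on the other strand at 106, which overlaps with the match at 110. Rfc3, whose LPS difference did not pass the test, held TTTCGCGC at 10 bases before its start. No listed promoter of a nucleotide synthesis member held any of the E2F motifs searched. Promoters were not listed for all members, and a site of another sequence or outside the window would be missed. In Pola2 (chr19:5940542-5964202, minus strand) the 1 match, TTTGGCGG, lay after the start. A match describes the letters of the window and is neither a binding site nor a cause.

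Some members share sequence with other genes, and the strand setting of the counting is not given in the sources used here. Exon bases of 11 members overlap with those of another protein-coding gene on the opposite strand, most in Gins2 (67.3% of its exon bases, with Gse1) and Chaf1a (52.5%, with Ubxn6). Fen1 shares 78.8% of its exon bases with the antisense gene Gm10143, which had at most 1.03 CPM. Pcna has a processed copy, Pcna-ps2, with 2119 counts over the 8 libraries. The levels of these genes are uncertain to that extent. Pola2 and Rfc3 share no exon base with another annotated gene of the table.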

How the data were processed

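The authors sequenced single reads of 100 nt, trimmed them with fastx_toolkit, aligned them to GRCm38 with TopHat2 and deposited raw counts per gene made with featureCounts. Versions, strand setting and treatment of multimapping reads are not given in the sources used here. The 46078 counted genes were matched to GENCODE M21 (45229 found). For each pair of groups, edgeR 4.0.16 (R 4.3.3) was run on just those 4 libraries (filterByExpr, TMM, two-sided quasi-likelihood F-test, Benjamini-Hochberg over all genes tested), and every adjusted p is of this kind unless DESeq2 is named. Within-lane differences used CPM plus 0.1. RPKM used the union of the exons. The fits were tested on simulated data with 200 genes changed 4-fold. Once a lane effect was added, edgeR without the block missed these genes, DESeq2 found part of them and edgeR with the block found them. Because the lane effect was built in, this favours the fit with the block. It cannot show whether the block calls on the real libraries, often at smaller changes, are right.

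Alternatives were DESeq2 1.42.0, RLE size factors, library size scaling, filters of at least 1 count overall and, more strictly, 10 counts per library, 4 groups in one fit, the replicate block, no minimum on the fold change, and each library left out. The replicate numbers pair the libraries because the labels tie each number to a lane. As a check, the replicate differences of group pairs correlated over genes with r from 0.316 to 0.7, but over the members from -0.0538 to 0.436, and genes are not independent replicates. Replicates differed by more than sampling noise (chi-square per gene from 12.9 to 46.9).

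The members and lists were chosen with earlier results of these data known. Values in every library are given for the members with the lowest and highest LPS change in each role, all members not down-regulated by LPS, and up to 4 members with the largest change per co-treatment. In each other list the 2 lowest and 2 highest genes with an adjusted p below 0.05 are named.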

Additional observations from a re-analysis of the deposited data

How the results depend on the processing

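Within lane 6 and without TMM, the median difference of the members between AGE+LPS and LPS was 0.000. In the fits, the direction of the member median was kept in all 6 comparisons under all alternatives. With library size scaling it was -1.76 for LPS against Control, -0.021 for AGE+LPS against LPS, -1.96 and -2.37 for AGE+LPS and FruArg+LPS against Control, and -0.35 for FruArg+LPS against AGE+LPS, and Rfc3 turned to -0.34 after LPS. With at least 10 counts in every library, which leaves out low members, the medians were -1.64 (AGE+LPS against Control), -1.53 (FruArg+LPS against Control) and -0.13 (FruArg+LPS against AGE+LPS), and with at least 1 count the last was -0.24. For FruArg+LPS against LPS the filter of at least 1 count called 1 member, the replicate block 2, and the block with no minimum on the fold change 5. For AGE+LPS against LPS the last setting called 12. In other comparisons the block added Orc1 and Gins2 (LPS), Orc1 (AGE+LPS) and Pold1 (FruArg+LPS) against Control, and changed no other DEG call among the members. Members between LPS and Control in both lanes with AGE+LPS numbered 13 with library size and 10 with RLE factors, the latter with Pold3, which was higher after LPS.

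With 1 library left out, when the lone sample is assumed to vary like the other group, 0 to 1 members were called (edgeR) for AGE+LPS against LPS, with a median from -0.29 to -0.049, and 0 to 2 for FruArg+LPS against LPS, with a median from -0.47 to -0.18. The medians ran from -1.70 to -1.52 for AGE+LPS against Control and from -0.26 to -0.18 for FruArg+LPS against AGE+LPS. After LPS, Cdt1 ran from -0.55 to 0.19, Gins3 from -0.28 to 0.21 and Rfc3 from -0.088 to 0.24. The cause of these shifts was not tested. With 2 libraries per group and members such as Pole2, Lig1 and Rrm2 at up to 3 counts in FruArg+LPS replicate 1, changes of low members are poorly bounded.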
